A study of Mus musculus with 6 samples.

Results

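The mitochondrial carriers of the SLC25 family were followed in monocytes sorted from the bone marrow of B6 mice, with and without the cytokine GM-CSF (granulocyte-macrophage colony-stimulating factor), which acts on myeloid cells. Every row of the count table whose gene symbol is Slc25a followed by a number was taken as a member, which gave 47 of 24421 gene entries. There were 3 GM-CSF libraries, made from freshly isolated cells after 3 h with 5 ng of GM-CSF (the labels give no volume), and 3 control libraries, made from cells labelled as fresh and isolated. Another label speaks of 3 h in medium for both groups, so time in culture may differ between the groups and cannot be told apart from GM-CSF. The labels name no separate mice or cultures behind the replicates. The p-values therefore set the group difference against the variation between these particular libraries only. That variation may be technical, and the p-values do not extend to other mice. In bulk RNA of this kind, fewer cells of a type and less RNA per cell cannot be told apart.

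SLC25 proteins sit mostly in the inner mitochondrial membrane, where each lets a small set of solutes cross. They bring ADP and phosphate in for ATP synthesis and take ATP out, and they exchange citrate, malate, aspartate and glutamate between the matrix and the cytosol. Others carry nucleotides for mitochondrial DNA and RNA, iron for haem and iron-sulfur clusters, glutathione, carnitine esters and cofactors. In macrophages, the export of citrate is known as a source of cytosolic acetyl-CoA for lipid synthesis. The proteins are made in the cytosol and reach the membrane through the TOM70 receptor, small TIM chaperones and the TIM22 complex.

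Gene reads numbered 16643228 to 21468929 in the GM-CSF libraries and 20782467 to 25232956 in the control libraries. Levels are on the counts-per-million scale (CPM), relative to the gene reads of each library. Where no read is seen, up to 3 reads remain possible, equal to 0.140 to 0.180 CPM in GM-CSF and 0.119 to 0.144 CPM in control libraries. GM-CSF replicate 3 correlated less well with its own group (Pearson r of log2(CPM + 1) across genes 0.987 and 0.990) than the other replicate pairs did (0.994 to 0.995). All 6 monocyte markers were present in both groups, with Csf1r, the M-CSF receptor gene, at 1642 ± 39.6 CPM in GM-CSF and 1450.2 ± 132 CPM in control libraries (SD, n = 3). Of the 6, 1 rose and 4 fell, and their sum was 28271 to 31127 CPM in GM-CSF and 61665 to 70939 CPM in control libraries. Lyz2, the lysozyme gene, held most of that sum; the other 5 summed to 7894 to 8646 CPM in GM-CSF and 10818 to 11662 CPM in control libraries. Neutrophil granule genes summed to 16095 to 20161 CPM in GM-CSF and 27815 to 38274 CPM in control libraries. Of these, S100a8, S100a9, Ngp, Camp, Ltf and Mmp8 fell, while Elane, Mpo and Prtn3 did not pass. Plasmacytoid dendritic cell genes summed to 56.4 to 59.7 CPM in GM-CSF and 105 to 112 CPM in control libraries. Bst2 held most of that sum (38.2 CPM in GM-CSF, 69.4 CPM in control). Siglech and Ccr9 passed the filter on low counts through control libraries alone, so the filter favoured their direction and nothing is read from it. The part of other cell types in the results was not tested.

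The sum of the 47 members stayed close to its control level, while single members went both ways. Relatives under other symbols are not in that sum. Of these, Ucp2 fell (1885 CPM in GM-CSF, 2263 CPM in control), Mtch2 rose and Mtch1 did not pass. Summed over the 47 members, the GM-CSF libraries had 2805, 2798 and 2871 CPM and the control libraries 2666, 2769 and 2681 CPM, a narrow gap with no overlap. The 5 most abundant members held 60.8% to 63.1% of these reads, so the sum mostly reflects few genes. A filter on low counts left 40 members to test. Of these, 24 changed at an adjusted p under 0.05 (edgeR's quasi-likelihood test with Benjamini-Hochberg adjustment over all 11731 genes tested), 12 higher and 12 lower. That is 60.0% of the tested members, beside 64.0% of all genes tested (32.8% higher and 31.2% lower), so the share of carriers that changed was close to the background. The median log2 fold change was -0.10 for the tested members and 0.01 for all genes. A change of at least 2-fold was called upward in 3 members and downward in 4, 7.5% and 10% of those tested, beside 11.9% and 12.6% of all genes. Slc25a27, 1 of those 4, passed the filter on low counts through its control libraries alone, so the filter favoured its direction. In 29 members (72.5%) no GM-CSF library overlapped a control library, beside 69.5% of all genes. Slc25a27 is counted in the 24 changed, the 12 lower and the 29, and nothing is read from its call.

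**Figure D1:**
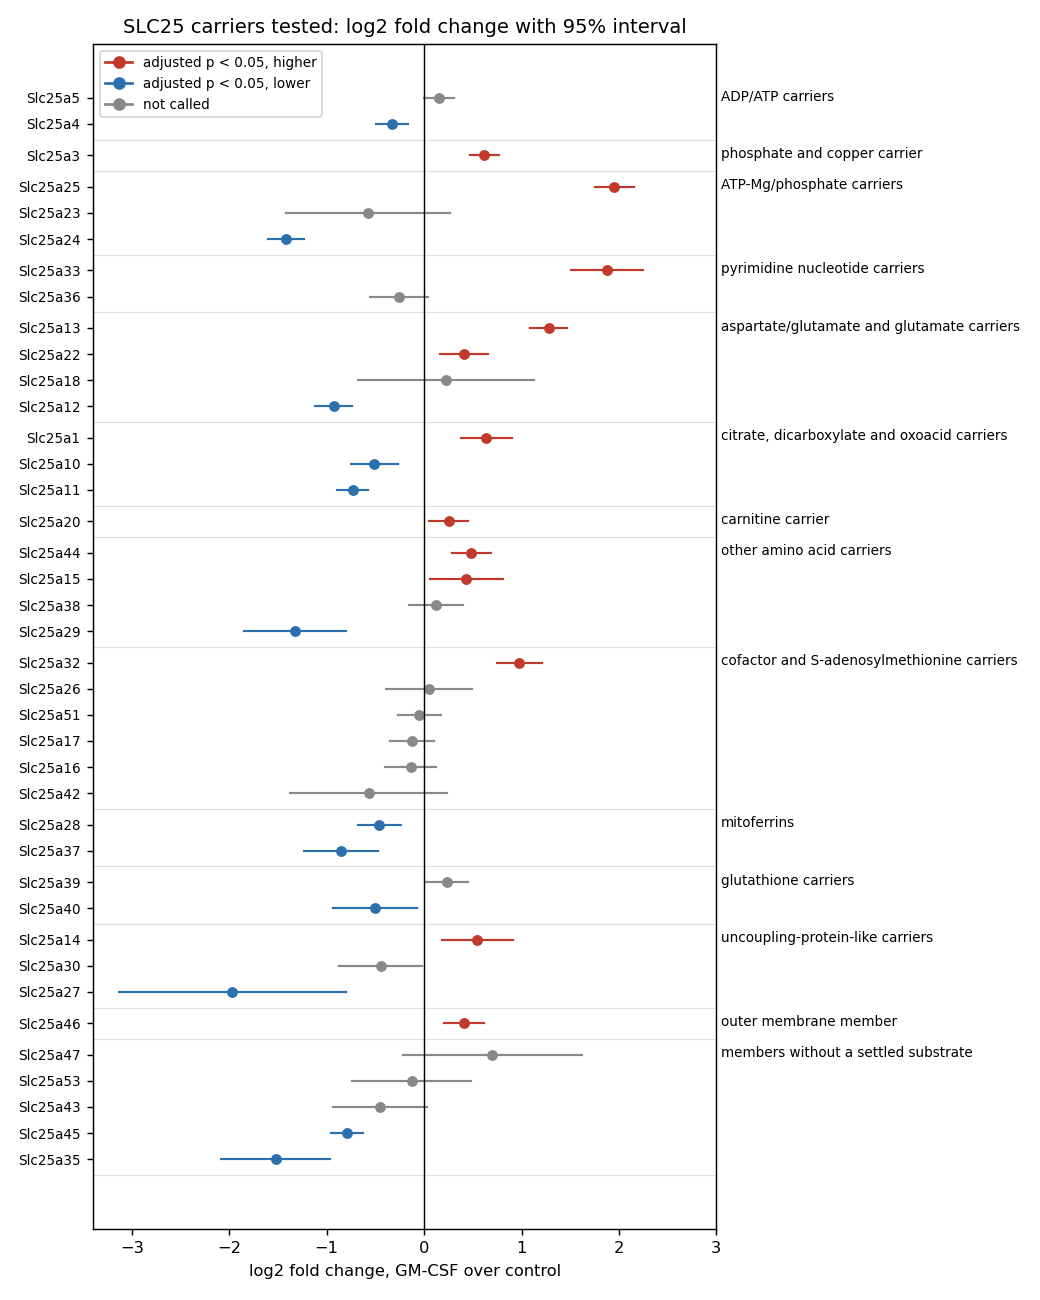
Log2 fold change (GM-CSF over control, x axis) of 39 of the 40 tested SLC25 carriers, grouped by substrate, with 95% intervals from the edgeR fit on 3 libraries per group; red and blue mark members called higher and lower at an adjusted p under 0.05 and grey those not called. Slc25a25, Slc25a33 and Slc25a13 lie farthest to the right, and within the same classes Slc25a24 and Slc25a12 lie to the left.

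In 4 substrate classes, related carriers changed in opposite directions: those for ATP-Mg and phosphate, for aspartate and glutamate, for citrate and related acids, and for other amino acids. Over all genes tested, 32.8% rose and 31.2% fell, and how often groups of unrelated genes split in this way was not computed. Promoters of 6 carriers are shown here because the 3 members with the largest rises (Slc25a25, Slc25a33, Slc25a13) each share a class with a member that fell or did not pass the test (Slc25a24, Slc25a36, Slc25a12). The sequences are the 250 bases before a RefSeq start site on GRCm38.p6 (the assembly that mm10 denotes), 5′ to 3′ on the gene's strand: chr2:32424067-32424316 (minus strand, the one of 3 annotated starts of Slc25a25 that has a match in these bases), chr3:109122899-109123148 (plus), chr6:6217174-6217423 (minus), chr2:71367756-71368005 (minus), chr4:149774268-149774517 (minus) and chr9:97111042-97111291 (minus). The bases just after the Slc25a25 start shown were not found in a GENCODE M21 transcript of the gene. Those after another of its starts, with no match in its window, were found. Capitals mark matches, on either strand, to 5 motifs that were searched: the E-box CACGTG bound by MYC and other factors, the cyclic AMP response element TGACGTCA, the STAT-type element TTCNNNGAA, the ETS site CCGGAAG and the NRF1 site (GCGCA followed directly by TGCGC).
Slc25a25: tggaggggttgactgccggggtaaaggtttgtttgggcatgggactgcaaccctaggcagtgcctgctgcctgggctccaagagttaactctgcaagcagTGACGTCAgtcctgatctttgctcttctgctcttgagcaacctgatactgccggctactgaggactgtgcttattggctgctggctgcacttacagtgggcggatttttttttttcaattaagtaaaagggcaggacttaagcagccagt
Slc25a24: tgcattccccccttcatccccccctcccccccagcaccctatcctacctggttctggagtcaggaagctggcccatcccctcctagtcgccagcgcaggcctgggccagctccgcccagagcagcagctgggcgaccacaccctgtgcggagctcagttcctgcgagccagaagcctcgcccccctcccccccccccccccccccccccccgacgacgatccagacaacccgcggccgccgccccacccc
Slc25a13: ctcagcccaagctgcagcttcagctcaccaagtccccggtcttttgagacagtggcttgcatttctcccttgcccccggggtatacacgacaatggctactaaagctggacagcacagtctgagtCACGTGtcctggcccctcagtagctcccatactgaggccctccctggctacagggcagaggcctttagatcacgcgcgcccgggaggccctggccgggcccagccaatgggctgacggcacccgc
Slc25a12: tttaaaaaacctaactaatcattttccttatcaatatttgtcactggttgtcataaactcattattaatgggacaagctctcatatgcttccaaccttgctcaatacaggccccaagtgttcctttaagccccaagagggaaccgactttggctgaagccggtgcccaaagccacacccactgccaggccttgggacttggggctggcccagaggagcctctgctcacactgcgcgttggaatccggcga
Slc25a33: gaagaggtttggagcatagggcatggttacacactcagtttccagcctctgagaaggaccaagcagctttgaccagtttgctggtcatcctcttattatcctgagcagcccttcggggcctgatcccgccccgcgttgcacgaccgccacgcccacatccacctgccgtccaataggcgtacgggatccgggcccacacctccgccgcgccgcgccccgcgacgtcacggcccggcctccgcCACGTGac
Slc25a36: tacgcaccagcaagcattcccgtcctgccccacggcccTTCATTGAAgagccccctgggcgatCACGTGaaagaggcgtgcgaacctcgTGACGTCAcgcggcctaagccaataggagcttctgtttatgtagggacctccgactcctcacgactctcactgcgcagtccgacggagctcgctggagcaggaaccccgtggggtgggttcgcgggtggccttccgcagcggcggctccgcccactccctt

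Promoter windows, 250 bases before to 50 after a start, were found for 36 of the 47 members, and the E-box letters occurred in 7 of them. Among members that rose, 5 of 9 with a window held an E-box (Slc25a1, Slc25a13, Slc25a14, Slc25a15 and Slc25a33), against 0 of 9 members that fell and 1 of 13 that were not called (Slc25a36); the remaining match was in the untested Slc25a31. Of all 27025 genes with a window, 8.09% held one, and of all 32851 windows, 7.15%. Those shares cover all genes with a window, and the share among the genes tested here was not computed. The calls of Slc25a14 and Slc25a15 did not hold under every alternative. The bases just after the annotated starts of Slc25a15 were not found in its GENCODE M21 transcripts. In Slc25a33 the E-box began 8 bases before the start, and in Slc25a13 125 bases before it; the matches in 2 windows of Slc25a14 are the same bases seen from 2 starts. The cyclic AMP response element was found in Slc25a25 and Slc25a36 (2.03% of all genes), the STAT-type element in Slc25a36 and Slc25a54 (9.55%) and the NRF1 site in no member window (1.07%). The ETS site was in 7 members, 3 of them higher (Slc25a3, Slc25a20 and Slc25a25), 1 lower (Slc25a4), 2 not called and 1 untested (9.93% of all genes). A match is a description of these letters and not evidence of binding, and a member with several starts has more windows in which to hold one.

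Carriers that exchange ATP-Mg for phosphate, and so set the size of the adenine nucleotide pool in the matrix under control of calcium, moved in opposite directions. Slc25a25 had 92.2, 90.8 and 93.4 CPM in the GM-CSF libraries and 25.8, 21.9 and 24.0 CPM in the control libraries. All GM-CSF libraries lay far above all control libraries, and the replicates were tight (log2 fold change 1.95 ± 0.09, SE; 3.87-fold; edgeR adjusted p = 2e-08). Slc25a24 did the reverse, with 30.8, 30.04 and 30.5 CPM in GM-CSF and 83.7, 83.3 and 78.3 CPM in control libraries. The groups were again well apart (-1.42 ± 0.08; adjusted p = 1.05e-07). Slc25a23, the other paralog tested, was scarce, at 0.581 ± 0.0387 CPM in GM-CSF and 0.877 ± 0.0849 CPM in control libraries, and did not pass (-0.58, 95% interval -1.42 to 0.26). Summed over these 3 genes, the GM-CSF libraries had 121 to 125 CPM and the control libraries 103 to 110.4 CPM, so the class as a whole differed far less than its parts. Slc25a25 lies on chromosome 2 at 32414487 to 32451445 and Slc25a24 on chromosome 3 at 109123149 to 109168457 (GENCODE M21, GRCm38), both protein-coding; 4.82% of the exon length of Slc25a25 overlaps Naif1 on the opposite strand.

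The calcium-regulated aspartate/glutamate carriers of the malate-aspartate shuttle, which moves reducing equivalents from cytosolic NADH into mitochondria, also moved apart. Slc25a13, which encodes citrin, had 71.9, 75.6 and 70.8 CPM in GM-CSF and 27.6, 31.4 and 31.4 CPM in control libraries. It was higher in every GM-CSF library than in any control library (1.28 ± 0.09; 2.43-fold; adjusted p = 3.06e-07). Slc25a12, which encodes aralar, had 69.7, 85.6 and 82.3 CPM in GM-CSF and 156, 148 and 150.3 CPM in control libraries. No GM-CSF library reached the lowest control library (-0.93 ± 0.09; adjusted p = 3.51e-06). The sum of both was lower, with 142 to 161 CPM in GM-CSF and 179 to 184 CPM in control libraries. Of the carriers for glutamate alone, Slc25a22 rose modestly (44.5 ± 5.53 CPM in GM-CSF, 33.7 ± 2.79 CPM in control; 0.41 ± 0.11; adjusted p = 0.00786), and Slc25a18 was under 1 CPM in every library and did not pass (0.23, 95% interval -0.68 to 1.13).

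Of the pyrimidine nucleotide carriers, which supply the matrix with precursors for mitochondrial DNA and RNA, one rose and the other did not pass. Slc25a33 had 12.04, 11.7 and 11.3 CPM in GM-CSF and 3.54, 3.09 and 2.89 CPM in control libraries, with no overlap (1.88 ± 0.17; 3.68-fold; adjusted p = 2.6e-06). A stretch of 14.9% of its exon length is shared with Gm13068 on the opposite strand, and the authors' use of strand is not given in the sources used here. Slc25a36 had 16.4, 14.3 and 17.0 CPM in GM-CSF and 17.1, 21.7 and 18.7 CPM in control libraries. Its groups did not overlap, but by a narrow gap (-0.26, 95% interval -0.56 to 0.04; adjusted p = 0.112), and it was called lower with upper quartile scaling (-0.38; adjusted p = 0.0284).

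**Figure D2:**
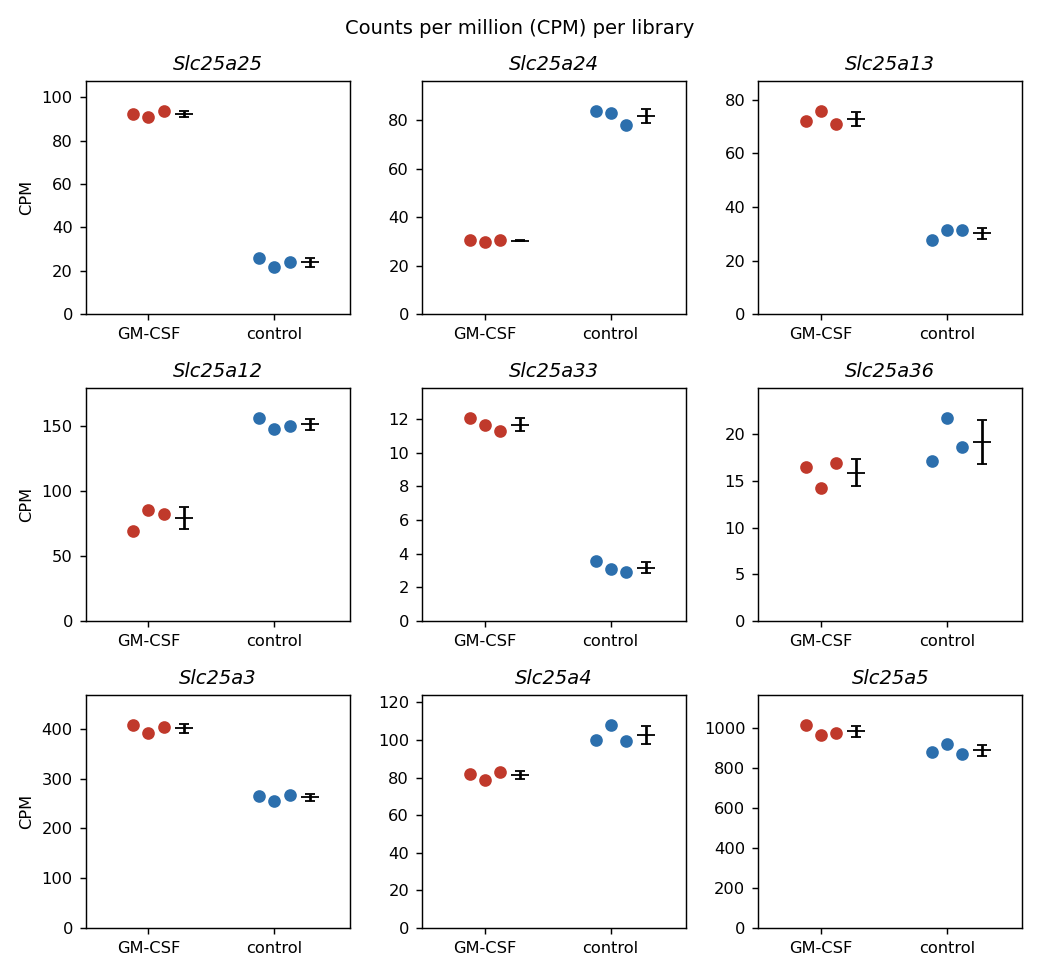
Level in CPM (y axes, from 0) of 9 SLC25 carriers in each of 3 GM-CSF (red, left) and 3 control libraries (blue, right), with the group mean and SD in black. Slc25a25, Slc25a13, Slc25a33 and Slc25a3 are higher in every GM-CSF library than in any control library, Slc25a24, Slc25a12 and Slc25a4 are lower, and Slc25a36 and Slc25a5 show narrow gaps.

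Within a library, the ratio of 2 members does not depend on how libraries are scaled, and per kb of exon it can be read as a ratio of levels. The ratio of Slc25a25 to Slc25a24 was 1.31 to 1.34 in GM-CSF and 0.115 to 0.134 in control libraries. That of Slc25a12 to Slc25a13 was 0.501 to 0.601 in GM-CSF and 2.44 to 2.92 in control libraries. For Slc25a33 to Slc25a36 it was 3.38 to 4.14 in GM-CSF and 0.724 to 1.05 in control libraries. The order of levels within the first 2 pairs was thus opposite in the groups, and with the longest transcript as length it was opposite in all 3 (Slc25a33 to Slc25a36 then 1.84 to 2.26 in GM-CSF and 0.394 to 0.573 in control libraries). On the log2 scale the ratios differed by 3.37, -2.21 and 2.15 between the groups (GM-CSF minus control). Of 8 pairs compared, 7 had no overlap between groups, beside 69.5% of single genes tested. The share for pairs of unrelated genes was not computed. Slc25a25 and Slc25a24, and Slc25a12 and Slc25a13, were already called in opposite directions, so the separation of these ratios adds no support. Each of the 7 had an exact two-sided permutation p of 0.1, the smallest that 3 against 3 libraries can give (0.114 adjusted over the pairs). This test therefore cannot pass a threshold of 0.05. The pair that overlapped was Slc25a10 to Slc25a11 (0.22; p = 0.2 in the exact permutation test).

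**Figure D3:**
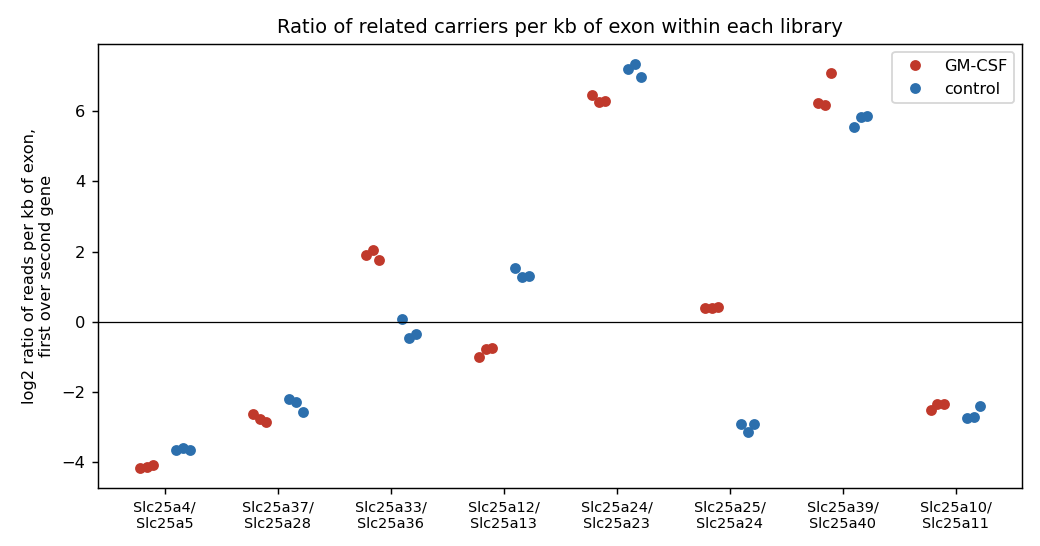
Log2 ratio of reads per kb of exon for 8 pairs of related carriers (x axis), 1 point per library, GM-CSF in red left of control in blue; 0 means equal levels. Slc25a25/Slc25a24 and Slc25a12/Slc25a13 lie on opposite sides of 0 in the groups. Of the 8 pairs, 7 do not overlap, beside 69.5% of single genes tested, and the share for unrelated pairs was not computed.

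Of the reads of the 47 members, the carriers that feed ATP synthase held the largest share. Ucp2, a relative under another symbol, lies outside this count and had more reads than any member. Slc25a5, the main ADP/ATP carrier of proliferating and blood cells, had 1012, 962 and 971 CPM in GM-CSF and 878, 917 and 866 CPM in control libraries. The groups were separate by a small margin and the gene did not pass (0.15, 95% interval -0.0018 to 0.31; adjusted p = 0.0774). Slc25a4, the isoform best known from heart and muscle, fell (81.8, 79.0 and 82.9 CPM in GM-CSF, 100.02, 108 and 99.2 CPM in control; -0.33 ± 0.08; adjusted p = 0.00283). Slc25a3, which brings in phosphate and also copper, rose to 408, 391 and 404 CPM in GM-CSF, against 265, 255 and 268 CPM in control libraries (0.62 ± 0.07; 1.54-fold; adjusted p = 1.13e-05). Its part of the reads of the 47 members was 14.2 ± 0.300% in GM-CSF and 9.71 ± 0.437% in control libraries (SD, n = 3). That of Slc25a5 was 34.8 ± 1.18% in GM-CSF and 32.8 ± 0.432% in control libraries. ADP/ATP carrier genes have close copies in the genome, and reads without a unique position were left out of gene counts, so their levels are uncertain.

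Per kb of exon, levels of different genes can be set side by side. Among the members, Slc25a5 stood far above the rest, at 597 ± 16.3 CPM per kb in GM-CSF and 539 ± 16.3 in control libraries. Relatives under other symbols, such as Ucp2, were not measured per kb. In GM-CSF libraries Slc25a3 came next (72.3 ± 1.56 CPM per kb), followed by Slc25a11 (62.3 ± 3.26) and Slc25a39 (56.7 ± 7.23), whose libraries overlap. In control libraries Slc25a11 was second (104 ± 3.32 CPM per kb), ahead of Slc25a45 (54.2 ± 2.94), Slc25a39 (48.3 ± 3.95) and Slc25a3 (47.3 ± 1.23), of which neighbours in that order overlap. With the longest transcript as length, Slc25a3 had rank 2 in GM-CSF and rank 4 in control libraries.

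**Figure D4:**
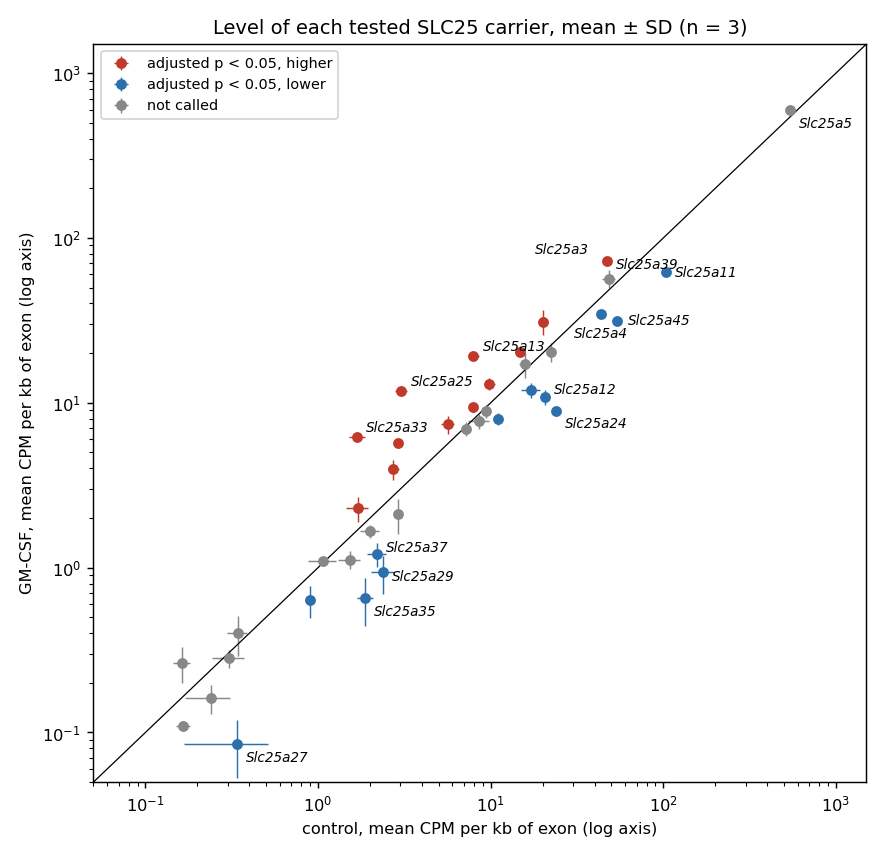
Mean level of each of the 40 tested carriers in CPM per kb of exon (log axes), GM-CSF on the y axis against control on the x axis, with SD bars (n = 3) and the line of equal levels; colours as for the log2 fold changes. Slc25a5 stands alone at the top, at 597 in GM-CSF and 539 in control, and Slc25a25, Slc25a33 and Slc25a13 lie above the line while Slc25a24, Slc25a12 and Slc25a11 lie below it.

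Carriers of citric acid cycle intermediates were split. Slc25a1, which exports citrate, had 57.6, 64.4 and 79.8 CPM in GM-CSF and 39.97, 45.6 and 44.8 CPM in control libraries; GM-CSF replicate 3 was the highest, and none overlapped (0.64 ± 0.12; adjusted p = 0.000655). Slc25a11, the oxoglutarate/malate carrier of the malate-aspartate shuttle, fell to 132 ± 6.92 CPM in GM-CSF, against 221 ± 7.04 CPM in control libraries (-0.73 ± 0.07; adjusted p = 5.21e-06). Slc25a10, the dicarboxylate carrier, fell as well (41.2 ± 4.50 CPM in GM-CSF, 59.1 ± 7.5 CPM in control; -0.51 ± 0.11; adjusted p = 0.00185). In Slc25a11, 8.92% of the exon length overlaps Rnf167 on the opposite strand. Slc25a20, which takes acylcarnitines in for fatty acid oxidation, was at 48.5, 45.1 and 43.0 CPM in GM-CSF and 36.8, 40.1 and 38.2 CPM in control libraries. Its rise was small (0.25 ± 0.09; adjusted p = 0.0296) and did not pass without GM-CSF replicate 1 (0.20) or 2 (0.27), without control replicate 1 (0.23) or 3 (0.24), with upper quartile scaling (0.14) or with no filter on low counts (0.24).

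Among carriers of other amino acids, Slc25a44, which takes in branched-chain amino acids, rose (73.2 ± 5.75 CPM in GM-CSF, 52.5 ± 2.79 CPM in control; 0.49 ± 0.09; adjusted p = 0.000699). Slc25a29, a carrier of basic amino acids, had 1.85, 2.34 and 3.12 CPM in GM-CSF and 5.21, 6.42 and 7.03 CPM in control libraries, and fell without overlap (-1.33 ± 0.24; adjusted p = 0.000539). Slc25a15, the ornithine carrier of the urea cycle, was called higher with overlapping groups (12.9 ± 2.20 CPM in GM-CSF, 9.58 ± 1.40 CPM in control; 0.43 ± 0.17; adjusted p = 0.0448). That call ended without GM-CSF replicate 1 (0.30) or 2 (0.44), without control replicate 1 (0.34) or 3 (0.42), and with upper quartile scaling (0.32), limma-voom (0.41), the replicate block (0.43) or the 10 most abundant genes removed (0.41). Slc25a38, which brings in glycine for haem synthesis, did not pass (0.12, 95% interval -0.16 to 0.40).

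Most cofactor carriers did not pass the test, with 14.3% called beside 64.0% of all genes tested. Of 7 tested, Slc25a32, which carries folate and FAD, rose to 35.5, 35.3 and 33.1 CPM in GM-CSF, against 18.7, 17.0 and 17.2 CPM in control libraries. Every GM-CSF library lay above every control library (0.98 ± 0.10; 1.97-fold; adjusted p = 1.1e-05). The carriers for NAD+ (Slc25a51), S-adenosylmethionine (Slc25a26) and coenzyme A (Slc25a42), the related Slc25a16 and the peroxisomal member Slc25a17 had log2 fold changes of -0.57 to 0.05. Of these, the narrowest 95% interval was that of Slc25a51 (-0.27 to 0.17) and the widest that of Slc25a42 (-1.37 to 0.24), which was near 1 CPM.

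Both mitoferrins, which bring iron into the matrix, fell. Slc25a37, mitoferrin-1, had 8.58, 7.15 and 6.15 CPM in GM-CSF and 14.8, 13.2 and 11.5 CPM in control libraries. The groups did not overlap (-0.85 ± 0.17; adjusted p = 0.00128). Slc25a28, mitoferrin-2, had 32.6, 30.2 and 27.3 CPM in GM-CSF and 42.2, 40.03 and 42.2 CPM in control libraries, also without overlap (-0.46 ± 0.10; adjusted p = 0.00194). Mitoferrin-1 is best known from red cell precursors, and erythroid markers were also lower in GM-CSF libraries, at very low levels: 8 genes summed to 0.466 to 1.13 CPM in GM-CSF and 2.26 to 2.96 CPM in control libraries. The 4 haemoglobin genes were at 0 in all libraries, and the part of red cell precursors in the Slc25a37 result was not tested.

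Of the glutathione carriers, Slc25a39 did not pass, at 141, 148 and 179 CPM in GM-CSF and 122, 144 and 133 CPM in control libraries, which overlapped (0.24, 95% interval 0.02 to 0.46; adjusted p = 0.0541). It was called higher without GM-CSF replicate 1 (0.30) or 2 (0.29), without control replicate 2 (0.30), and with the robust prior (0.24) or the replicate block (0.23; adjusted p = 0.0403). Slc25a40 was called lower (5.31 ± 1.16 CPM in GM-CSF, 7.504 ± 0.435 CPM in control; -0.50 ± 0.20; adjusted p = 0.0427). This call ended without GM-CSF replicate 3 (-0.32), without control replicate 1 (-0.46), 2 (-0.49) or 3 (-0.56) and with DESeq2 (-0.51).

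Carriers related to uncoupling proteins were low in these cells. Slc25a14 rose (9.38 ± 1.30 CPM in GM-CSF, 6.46 ± 0.491 CPM in control; 0.55 ± 0.17; adjusted p = 0.0134), a call that ended without GM-CSF replicate 1 (0.42). Slc25a27 had 0.298, 0.481 and 0.233 CPM in GM-CSF and 0.667, 1.31 and 2.02 CPM in control libraries, and was called lower (-1.97 ± 0.53; adjusted p = 0.00698). Slc25a27 passed the filter through its control libraries alone, with 18 reads in GM-CSF and 91 in control libraries. The filter thus favoured this direction, and nothing is read from the call. Slc25a30 did not pass (-0.44; adjusted p = 0.0648) but was called lower without GM-CSF replicate 1 (-0.56), without control replicate 3 (-0.57) or with upper quartile scaling (-0.56). Slc25a46, an outer membrane member with a part in the shape of mitochondria, rose (70.5 ± 5.75 CPM in GM-CSF, 53.3 ± 3.98 CPM in control; 0.41 ± 0.09; adjusted p = 0.0028).

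Of the members listed as having no settled substrate, 2 of 5 tested fell and none rose, or 40% lower beside 31.2% of all genes, so the share was near the background. Slc25a45 was abundant and dropped to 82.8, 85.2 and 90.5 CPM in GM-CSF, against 143, 159 and 147 CPM in control libraries (-0.79 ± 0.08; adjusted p = 4.75e-06). Slc25a35 had 3.04, 2.64 and 1.54 CPM in GM-CSF and 6.38, 7.73 and 6.54 CPM in control libraries (-1.52 ± 0.25; adjusted p = 0.000326). A stretch of 31.3% of its exon length overlaps Rangrf on the opposite strand, so part of its reads may belong to that gene or have been left out as ambiguous. Slc25a43 (-0.45), Slc25a47 (0.70) and Slc25a53 (-0.13) did not pass. Slc25a47 was kept by the filter through GM-CSF libraries alone, with 43 reads in GM-CSF and 34 in control libraries. Slc25a43 was called lower without GM-CSF replicate 3 (-0.65) and with upper quartile scaling (-0.57).

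The 7 members removed by the filter were near or at the limit of detection. Slc25a48 and Slc25a54 had 0 reads in all libraries, and Slc25a21 had 0 reads in GM-CSF and 3 in control libraries. Slc25a34 had 0 reads in GM-CSF and 11 in control libraries. With the GM-CSF group as a whole set to 3 reads, it would be 2.87-fold lower. The counting error of the 11 control reads is not included in that value. Slc25a2 had 3 and 4 reads in GM-CSF and control libraries, a ratio of counts per total of 0.957 (95% counting interval 0.140 to 5.65), and Slc25a41 had 6 and 1, a ratio of 7.65 (0.928 to 352). Slc25a31, an ADP/ATP carrier of germ cells, had 23 reads in GM-CSF and 8 in control libraries (ratio 3.67, 1.58 to 9.48), but 20 of the 23 were in GM-CSF replicate 1. Such intervals cover counting error only.

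Related mitochondrial genes outside the family were read beside the carriers, in 9 lists with 70 tested genes, of which 24 rose and 22 fell, or 65.7% beside 64.0% of all genes. Over all genes tested, 32.8% rose and 31.2% fell, which is the background for each list. Genes for the import of carrier proteins were split as 7 that rose, 1 that fell and 4 not called, or 58.3% higher beside 32.8% of all genes (median log2 fold change 0.75). Timm9 and Timm10, whose products form the chaperone that brings carriers across the intermembrane space, were at 27.8 ± 0.462 and 48.6 ± 1.83 CPM in GM-CSF and 8.002 ± 0.603 and 18.4 ± 2.95 CPM in control libraries (1.80 ± 0.12 and 1.41 ± 0.13). The receptor genes Tomm20 (1.75 ± 0.12) and Tomm70a (0.86 ± 0.08), the small TIM gene Timm8a1 (1.47 ± 0.14) and the pore gene Tomm40 (0.98 ± 0.08) rose, as did Agk (0.65 ± 0.15), while Timm10b, a TIM22 partner, fell (-0.99 ± 0.10). Of 9 regulators of mitochondrial biogenesis, 6 rose and none fell, or 66.7% higher beside 32.8% of all genes (median 0.39), led by the PGC-1-related coactivator gene Pprc1 (62.2 ± 4.22 CPM in GM-CSF, 13.9 ± 0.521 CPM in control; 2.16 ± 0.10), Ppargc1b (1.10 ± 0.22) and Gabpa (0.69 ± 0.08).

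Enzymes that work on the carried solutes went both ways. Among 10 of the malate-aspartate shuttle and citrate metabolism, 3 rose and 3 fell, or 60.0% changed beside 64.0% of all genes (median -0.01). The cytosolic aspartate aminotransferase gene Got1 rose (51.3 ± 12.7 CPM in GM-CSF, 13.7 ± 0.493 CPM in control; 1.91 ± 0.16) and the cytosolic isocitrate dehydrogenase gene Idh1 fell (119.8 ± 9.33 CPM in GM-CSF, 650.0 ± 105 CPM in control; -2.43 ± 0.12). Me1, the cytosolic malic enzyme gene, is counted among the 3 that rose but passed the filter through the GM-CSF libraries alone, and had 224 reads in GM-CSF and 3 in control libraries, a ratio of 95.2 (95% counting interval 32.2 to 465). Of 9 mitochondrial nucleotide enzymes, 2 rose and 5 fell, or 55.6% lower beside 31.2% of all genes (median -0.53), with the interferon-inducible nucleotide kinase gene Cmpk2 (-2.96 ± 0.12) and the thymidine kinase gene Tk2 (-1.76 ± 0.11) lower. The adenylate kinase gene Ak4, called higher, passed the filter through the GM-CSF libraries alone, with 129, 88 and 102 reads in GM-CSF and 22, 8 and 6 reads in control libraries. Of 12 iron and haem genes, 6 fell and 1 rose, or 58.3% changed beside 64.0% of all genes (median -0.22). By direction, 50% were lower and 8.33% higher, beside 31.2% and 32.8% of all genes. The gene that rose was Alas1, for the first enzyme of haem synthesis (632 ± 21.8 CPM in GM-CSF, 217 ± 15.02 CPM in control; 1.55 ± 0.07), while Urod (-0.71 ± 0.09) was lower.

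Other transport genes of mitochondria also went both ways. Of 7 pyruvate carrier and sideroflexin genes, 2 rose and 4 fell, or 85.7% changed beside 64.0% of all genes (median -0.36). By direction, 57.1% were lower and 28.6% higher, beside 31.2% and 32.8% of all genes. Sfxn3 was higher (1.08 ± 0.11), and Sfxn5 (-1.14 ± 0.27) and Sfxn2 (-0.77 ± 0.12) were lower. Of the SLC25 relatives that carry other symbols, 3 were tested: Mtch2 rose (0.27 ± 0.07), Ucp2, an uncoupling protein gene abundant in leukocytes, fell (1885 ± 169.5 CPM in GM-CSF, 2263 ± 176 CPM in control; -0.26 ± 0.09; adjusted p = 0.028), and Mtch1 did not pass (-0.06). Of 5 calcium uniporter genes, 1 rose (Letm1, 0.24 ± 0.08) and 2 fell (among them Micu2, -0.25 ± 0.07), or 60.0% changed beside 64.0% of all genes. Of 3 outer membrane channel genes, Vdac2 rose (0.29 ± 0.07), or 33.3% higher beside 32.8% of all genes.

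**Figure D5:**
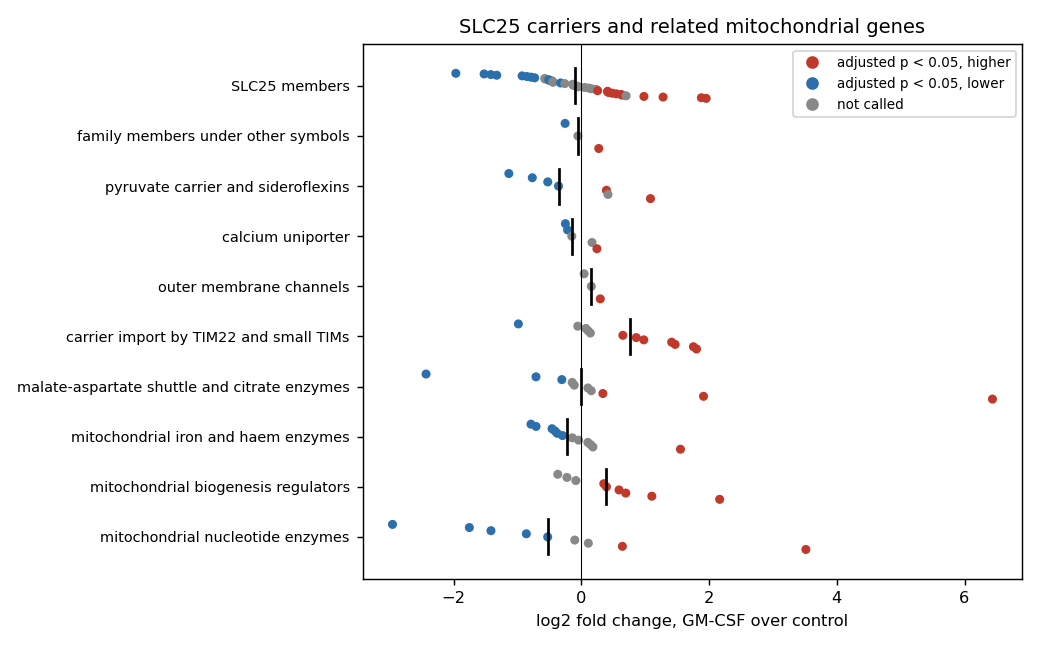
Log2 fold change (GM-CSF over control, x axis) of each tested SLC25 carrier and of the tested genes in 9 lists of related mitochondrial genes, 1 point per gene and a black bar at each list's median; red and blue mark genes called higher and lower, grey those not called. The import list (median 0.75) and the biogenesis list (median 0.39) lie to the right of the carriers (median -0.10); the point farthest to the right is Me1, which had 3 control reads, and the differences between lists were not tested.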

How the data were processed

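RNA was sequenced from 3 GM-CSF and 3 control libraries of sorted mouse monocytes, with poly(A) selection and paired reads, per the labels. The authors deposited 1 table of raw read counts per gene symbol, whose columns carry the sample titles. HTSeq 0.6.1p1, STAR 2.5.2a, Trim Galore 0.4.4, edgeR and mm10 appear in the submitters' processing notes, without roles. Neither the annotation nor the strand setting is given in the sources used here. Rows for reads outside genes (7.82% to 9.72% of counted reads), for ambiguous reads (1.44% to 1.53%) and for non-unique alignments (18.0% to 19.6%) were dropped before any library size or test.

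The test was the two-sided quasi-likelihood F test of edgeR 4.0.16 (R 4.3.3), with TMM scaling, filterByExpr (minimum count 10, minimum total 15) and group as the only term. P-values were adjusted over all 11731 genes tested, at a threshold of 0.05. SE is the absolute log2 fold change over the square root of F. CPM uses the total of gene counts. Lengths and positions came from GENCODE M21, which held all 47 members and may differ from the annotation used for counting. Alternatives were other scalings, filters and priors, a replicate block, each library left out, limma-voom (limma 3.58.1) and the DESeq2 1.42.0 Wald test. Deviations from the group mean correlated at 0.130, 0.0222 and 0.0226 between same-numbered samples, so the numbers were not taken to pair them. No 2 replicates agreed within sampling noise (chi-square per degree of freedom of at least 11.7).

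The members, lists and naming rule were chosen with earlier results of these data known. Values per library are given for called members whose mean log2 CPM and absolute log2 fold change both reach 1, for 10 members fixed by name, and for others picked after their values were seen. From each related list, up to 3 called genes with the largest change were named by rule; Timm10, Tomm70a, Tomm40, Agk, Timm10b and Mtch1 were added after their values were seen. Values of some single genes are not reported here.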

Additional observations from a re-analysis of the deposited data

How the results depend on the processing

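Over 16 alternatives, the number of tested carriers called higher ran from 10 to 13 (12 as reported) and lower from 11 to 15 (12 as reported). Of the 24 called carriers, 20 kept direction and call under every alternative in which they were tested. Slc25a27, which passed the filter through control libraries alone, is among the 20, and its steadiness adds no support. The exceptions were Slc25a14, Slc25a15, Slc25a20 and Slc25a40, whose values are given with them, and no called carrier changed sign. Upper quartile scaling moved the median log2 fold change of all genes to -0.11, from 0.01. With it, 10 carriers were higher and 15 lower, and Slc25a26 turned sign (-0.065, from 0.05). With 1 library left out, Slc25a26 ran from -0.060 to 0.22, Slc25a38 from -0.012 to 0.23, Slc25a51 from -0.10 to 0.042 and Slc25a53 from -0.29 to 0.015, all not called; the cause was not tested. The replicate block left 12 higher and 12 lower, ending the call of Slc25a15 (0.43) and adding that of Slc25a39 (0.23). All 8 pair ratios kept their direction with each library left out. Carriers under about 1 CPM rest on few reads, and smaller differences were not detectable there.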
